A study of Mus musculus with 20 samples.

Results

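Lineage-labelled Thy1-high keratinocytes of the mouse dorsal epidermis (YFP+) were compared with hair follicle stem cells (HFSCs) by bulk RNA sequencing of sorted cells. The comparison rested on 3 YFP+ and 4 HFSC libraries of a series of 20. Every gene with a normalized count of at least 10 in at least 3 of these 7 libraries was tested, which left 14269 of 53380 genes. Of the genes tested, 323 reached that minimum in HFSC libraries and in no YFP+ library, and 47 reached it in every YFP+ library and in no HFSC library.

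HFSCs reside in the bulge, the lower end of the permanent hair follicle, and rest for long periods between rounds of hair growth. They carry CD34 and Lgr5 on their surface, rely on transcription factors such as Sox9, Lhx2 and Tcf7l1, and sit in a niche where WNT signals favour activation and BMP signals favour rest. The interfollicular epidermis between the follicles is renewed by its own basal keratinocytes, which express keratins 5 and 14 and, unlike bulge cells, the surface protein Sca1 (Ly6a). Thy1 (CD90) is a surface glycoprotein best known from T cells, and in this series it was used to sort a fraction of basal keratinocytes.

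HFSCs were gated as integrin-α6+Sca1-CD34+ cells, which the study's methods place in wild-type C57BL/6J skin. YFP+ cells were gated as integrin-α6+Sca1+Thy1hi cells carrying EYFP, from mice in which tamoxifen had activated CreERT2 under a Thy1 promoter and switched on a Rosa26-EYFP reporter. The same gate without the reporter, in wild-type skin, gave the 4 Thy1hi libraries whose values are set beside those of the YFP+ cells. GEO's labels instead give every sample the genotype Thy1.2CreERT2-Rosa26-EYFP and no treatment, and they call the YFP+ cells negative for ScaI, where the study's text has Sca1+. The labelled ages rise by 1 week from sample to sample, from 8 to 11 weeks for HFSCs from 17 to 19 weeks for YFP+ cells and from 20 to 23 weeks for Thy1hi cells, whereas the study's methods give 8 weeks for all mice. The study's methods list the Thy1-CreERT2 line on a mixed B6 and SJL background, unlike the wild-type C57BL/6J mice. Population, strain, transgene, tamoxifen and labelled age thus cannot be told apart in this comparison. The study counts single mice for some displays of these populations and pooled mice for others, and no label ties a library to its mice, so the p-values measure the spread between these samples, which may be technical. The submitters name 2 kinds of library kit without saying which sample had which, and by their Xist and Y-linked reads both populations held libraries of both sexes. In sorted bulk RNA, fewer cells of a type and less RNA per cell cannot be told apart.

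Each of the 7 libraries held 9532524 to 12982393 reads on genes, and 13.1% to 41.5% of them lay on the ribosomal gene Rn45s. HFSC replicate 4 stood apart from the other 6 libraries. Its Rn45s share was the 13.1%, against 31.4% to 41.5% in the others, and its correlation with the other HFSC libraries across genes was 0.829 to 0.860, against 0.943 to 0.959 among those 3. The first principal component, with 43.5% of the variance, separated all YFP+ from all HFSC libraries, and the second, with 27.3%, placed HFSC replicate 4 at 101 and the other libraries between -52.0 and 15.3. Of 6563 genes with at least 100 normalized counts in every other HFSC library, 63 were in replicate 4 at 10% or less of the lowest of those libraries. Counts of called genes that changed without this library are therefore given both ways.

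Values below are normalized counts in YFP+ replicates 1 to 3 and in HFSC replicates 1 to 4, in that order. Thy1, Ly6a, Cd34 and the integrin-α6 gene Itga6 encode the proteins used in the sort gates, so their levels check the labels and are given without a test. Where a gene list below holds one of them, its call is included in the count and is no independent evidence. Thy1 (chr9:44043384-44048579, mm10) had 694, 468 and 1546 normalized counts in YFP+ cells and 85.4, 68.4, 57.7 and 18.2 in HFSCs. Cd34 (chr1:194938819-194961279) had 114, 108 and 66.4 in YFP+ cells and 1930, 1599.8, 2622 and 2032 in HFSCs. For both genes the populations did not overlap, Thy1 by a fold of 15.6 and Cd34 by a fold of 21.3 in the opposite direction. Ly6a had 318, 200.5 and 401 in YFP+ cells and 78.5, 42.4, 72.7 and 35.0 in HFSCs, so every YFP+ library was above every HFSC library. Itga6 had 9852, 6917 and 12017 against 4460.2, 3757, 4087 and 2005. Lgr5, a receptor for R-spondins that marks bulge cells and was not part of the gates, had 41.9, 57.3 and 22.8 in YFP+ cells and 665, 443, 545 and 572 in HFSCs, a difference of -3.82 ± 0.31 on the log2 scale (SE; limma adjusted p = 0.000351). An exact permutation test of 3 libraries against 4 has 35 splits and cannot go below p = 0.0571, two-sided, which is what Lgr5 gave.

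Which genes distinguish the labelled cells from follicle stem cells was tested by limma on log2(normalized count + 1), with p-values adjusted over all 14269 genes and 0.05 as the threshold. The test called 458 genes higher and 682 genes lower in YFP+ cells, which is 3.21% and 4.78% of the genes tested and 7.99% together. Of these calls, 17 higher and 79 lower genes reached the minimum of 10 normalized counts in 1 population only, the one where they were high. Such genes had to differ to be tested, so they are given below as values without a p-value, and 441 higher and 603 lower calls remain without them. The gene lists hold few of them: 3 of the bulge surface and secreted genes called, 2 in the WNT pathway, 2 in the BMP, TGF-beta and activin pathway, 1 matricellular gene and 1 cytokine. In all 1140 called genes the libraries of the populations did not overlap, as in 25.2% of all genes tested. Falls were the larger changes: 332 genes fell at least 4-fold and 149 at least 8-fold, against 148 and 31 genes that rose as much. Without HFSC replicate 4 the counts were 830 higher and 1226 lower, and they included all 458 of the higher and 662 of the lower calls made with it. Member counts of gene lists without that library are to be read beside these larger totals. No called gene changed direction in any of 18 alternative fits that included it. When libraries were instead scaled to the same total outside Rn45s, the median log2 difference of all genes moved from 0.00 to 0.12 and the calls to 791 higher and 579 lower, so the higher share of calls moved from 40.2% to 57.7%.

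**Figure D1:**
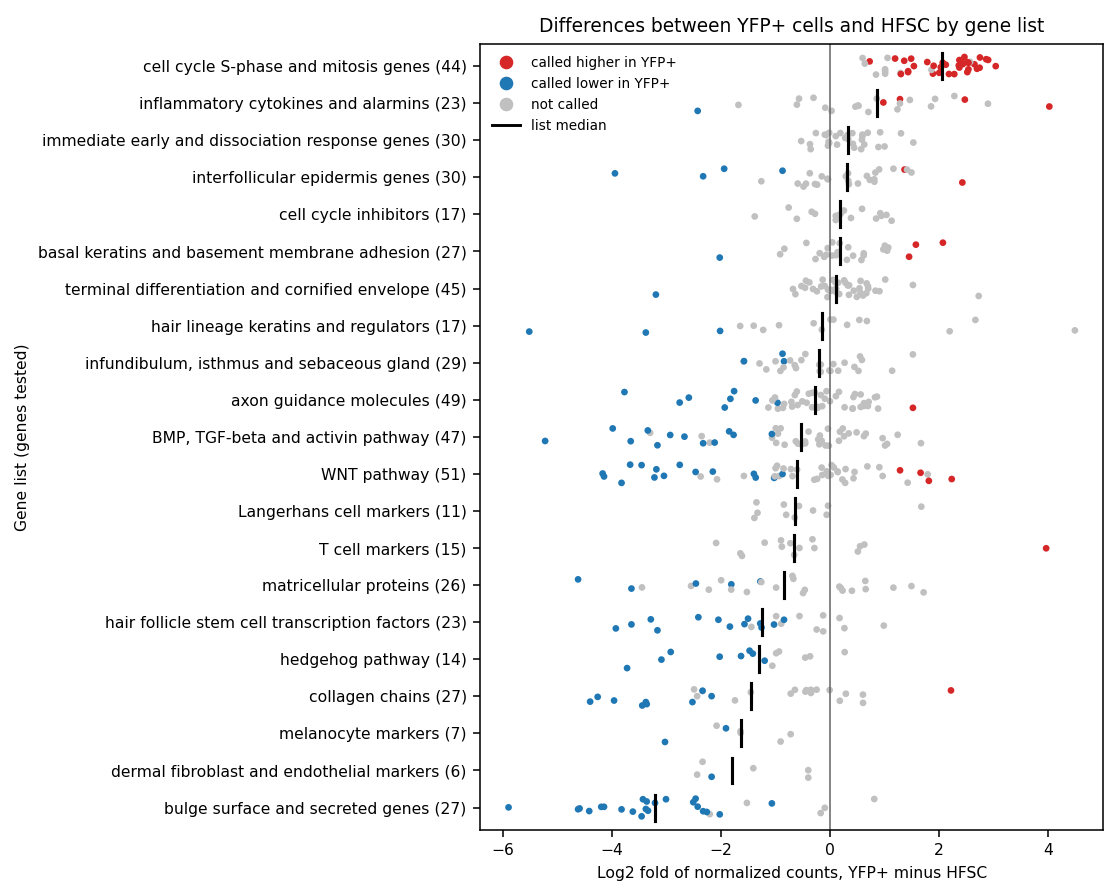
Log2 differences between YFP+ cells and HFSCs (horizontal axis, YFP+ minus HFSC) for the tested members of each gene list (vertical axis, number of genes tested in brackets). Each point is a gene, coloured by its call, and black bars are list medians; all 44 cell cycle genes lie to the right of 0 and 26 of 27 bulge surface and secreted genes to the left.

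Genes of follicle stem cell identity were low in YFP+ cells. Of 23 tested hair follicle stem cell transcription factors, 13 (56.5%) fell, against 4.78% of all genes, and none rose. Without HFSC replicate 4, 16 fell and none rose. The median log2 difference was -1.25 against 0.00 over all genes. Lhx2, a LIM-homeodomain factor of the bulge, had 46.9, 104 and 51.5 normalized counts in YFP+ cells and 757, 1113, 1072 and 1001 in HFSCs. Every YFP+ library was far below every HFSC library, a 15.2-fold difference (log2 -3.93 ± 0.30, SE; limma adjusted p = 0.000330). Tbx1, a T-box factor, had 27.9, 114 and 40.6 against 568, 1011, 471 and 633 (log2 -3.64 ± 0.45; adjusted p = 0.00222). Tcf7l1, which represses WNT target genes in the bulge, fell by 9.74-fold, and Id2, a BMP target, by 8.96-fold. The forkhead factor Foxc1 fell by 5.33-fold (adjusted p = 0.00689). Not all factors were lost: Nfib, the nuclear factor I member, kept 2054, 2201 and 2896 normalized counts against 6114, 6819.5, 7056 and 8112, a 2.96-fold fall. Sox9 had 694, 1112 and 486 against 3664, 4861, 3587 and 1235, and HFSC replicate 4 was near the YFP+ libraries. Its log2 difference was -2.05 ± 0.46 (adjusted p = 0.0293); the call was lost without any 1 of HFSC replicates 1, 2 and 3 and YFP+ replicates 1 and 3 (adjusted p up to 0.133), and without HFSC replicate 4 the adjusted p was 0.000971.

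Surface and secreted products of the bulge had the lowest median of the 23 lists. Of 27 tested, 22 (81.5%) fell, against 4.78% of all genes, and none rose. The median was -3.21, and without HFSC replicate 4, 23 fell. Cd34 and Lgr5 are members of this list, and Cd34 was a sort marker. Angptl7, a secreted angiopoietin-like protein, had 20.9, 17.8 and 5.94 normalized counts in YFP+ cells and 601, 288, 1901 and 1529 in HFSCs. It fell by 59.4-fold (log2 -5.89 ± 0.66; limma adjusted p = 0.00143), although the HFSC libraries themselves were spread widely. Ctgf, a matricellular growth factor and classical target of YAP and TEAD, had 156, 77.4 and 45.6 against 3261, 936, 2902 and 1943 (log2 -4.62 ± 0.50; adjusted p = 0.00126). Fgf1, a fibroblast growth factor, had 8.97, 51.1 and 5.94 against 253, 227, 360.3 and 295. YFP+ replicate 2 was the highest of the labelled libraries for Lhx2, Tbx1 and Fgf1, and still below every HFSC library. Itm2a, a membrane protein, had at most 3 reads in each YFP+ library and 18.5, 31.5, 20.3 and 52.5 normalized counts in HFSCs, so it was at least 11.1-fold lower when 3 reads per library are taken as the floor. Krt15, the type I keratin of the bulge, remained at 10936, 10164 and 8496 against 50076, 44723, 50366 and 22299, a 4.06-fold fall (adjusted p = 0.0116, and up to 0.0677 without YFP+ replicate 1 or 3). Postn, a matricellular protein, was not called, with 1863, 2057 and 11026 against 8996, 5962, 12204 and 15338 (adjusted p = 0.160); the high value is YFP+ replicate 3, without which it was called.

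**Figure D2:**
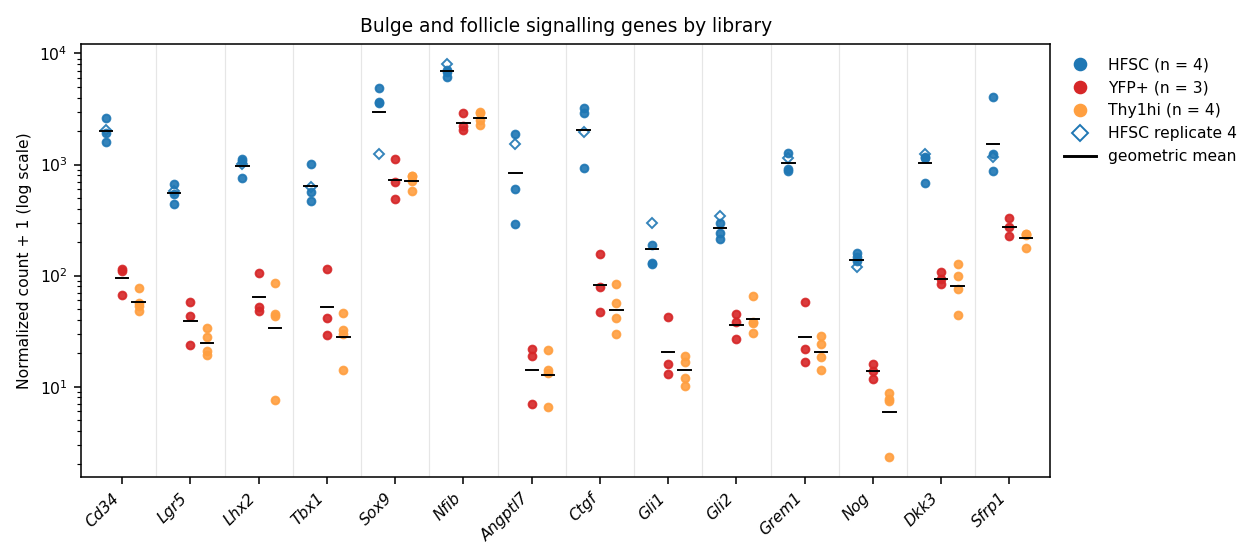
Normalized counts plus 1 (vertical axis, log scale) of bulge and follicle signalling genes (horizontal axis) in single HFSC, YFP+ and Thy1hi libraries; open diamonds mark HFSC replicate 4 and bars the geometric mean. For every gene shown, all YFP+ libraries lie below all HFSC libraries, and the YFP+ and Thy1hi points lie close together.

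Hedgehog signalling acts through the transmembrane protein Smo and the Gli transcription factors, with Boc and Cdon as co-receptors and Hhip as a ligand-binding inhibitor whose gene is itself a target. Of 14 tested pathway genes, 8 (57.1%) fell, against 4.78% of all genes, and none rose. The median was -1.31, and without HFSC replicate 4, 9 fell and none rose. The target and factor Gli1 had 14.9, 41.0 and 11.9 normalized counts in YFP+ cells and 126, 189, 128 and 298 in HFSCs. It fell by 8.52-fold (log2 -3.09 ± 0.47; limma adjusted p = 0.00501), with HFSC replicate 4 the highest library. Gli2 had 43.9, 37.2 and 25.8 against 211, 243, 298 and 345 (log2 -2.92 ± 0.27; adjusted p = 0.000670), and Boc fell by 4.06-fold (adjusted p = 0.000800). Hhip, at 0, 13.2 and 2.97 against 69.3, 41.3, 80.2 and 25.9, was called at adjusted p = 0.0291, and the call was lost in 7 of 18 alternatives, among them those without any 1 of HFSC replicates 1 to 3 or YFP+ replicates 1 and 3 (adjusted p up to 0.0985). Smo itself had 494, 439 and 584 against 388, 436, 459 and 388 and was not called (adjusted p = 0.398).

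WNT signals run from secreted ligands through Frizzled receptors and Lrp co-receptors to β-catenin (Ctnnb1), and secreted Sfrp, Dkk and Wif proteins dampen or modulate them. Of 51 tested genes, 15 (29.4%) fell and 4 (7.84%) rose, against 4.78% and 3.21% of all genes. The median was -0.60, and without HFSC replicate 4, 18 fell and 6 rose. The falls took in receptors and inhibitors. Fzd2 had 33.9, 56.5 and 3.96 normalized counts in YFP+ cells and 289.7, 589, 435 and 298 in HFSCs (log2 -4.17 ± 0.73; limma adjusted p = 0.00954), and Fzd3 fell by 9.31-fold. Dkk3, a secreted Dickkopf relative, had 91.7, 106 and 83.2 against 674, 1147, 1171 and 1249, with no overlap (log2 -3.45 ± 0.25; adjusted p = 0.000313). Sfrp1 had 228, 271 and 332 against 882, 4050.0, 1253 and 1176, where HFSC replicate 2 was well above the rest (adjusted p = 0.0131, and 0.0668 without YFP+ replicate 1). Wif1 was at 2.99, 5.42 and 0 against 42.7, 43.4, 70.6 and 51.9 in HFSCs. The genes that rose were 3 ligands and 1 receptor, singled out after their values were seen. Wnt4 had 1045, 626 and 814 against 352, 251, 327 and 148, a rise of 3.16-fold (adjusted p = 0.0148). Wnt3 rose by 3.51-fold, Wnt3a by 4.70-fold and Fzd10 by 2.44-fold. Each of these 4 calls was lost without YFP+ replicate 1 or 3 (adjusted p up to 0.126), and that of Fzd10 also without YFP+ replicate 2, HFSC replicate 1 or HFSC replicate 2. Ctnnb1 was not called, with 1872, 1637 and 2232 against 2367, 2657, 2335 and 1349. Dkk3, Lgr5, Sfrp1 and Wif1 are counted in both the WNT and the bulge list.

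BMP ligands bind serine-threonine kinase receptors that act through Smad1, Smad5 and Smad9, and secreted antagonists such as gremlin and noggin hold them back. Of 47 tested genes of the BMP, TGF-beta and activin pathway, 12 (25.5%) fell, against 4.78% of all genes, and none rose. The median was -0.53, and without HFSC replicate 4, 19 fell and 3 rose. The antagonists were among the genes that fell. Grem1 (gremlin) had 20.9, 57.3 and 15.8 normalized counts in YFP+ cells and 905, 882, 1274 and 1139 in HFSCs, a 37.3-fold fall (log2 -5.22 ± 0.39; limma adjusted p = 0.000330). Nog (noggin) had 14.9, 10.8 and 12.9 against 158, 135, 145 and 119, and no value came near the other population (log2 -3.34 ± 0.26; adjusted p = 0.000351). Fst (follistatin, an activin antagonist) fell by 5.01-fold. Of the intracellular members, Smad9 had 6.98, 6.19 and 6.94 against 115, 66.2, 99.4 and 111, and the inhibitory Smad6 had 5.98, 8.51 and 4.95 against 62.3, 61.9, 58.8 and 39.9. No YFP+ library reached 10 for either gene. Ltbp2, a latent TGF-beta binding protein family member of the extracellular matrix, had 57.8, 86.7 and 54.5 against 1062, 1052, 1236 and 851, a 15.8-fold fall.

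The remaining genes with the largest falls belonged to no single pathway. Krt24, a type I keratin, had 7.97, 23.2 and 6.94 normalized counts in YFP+ cells and 324, 566, 684 and 711 in HFSCs (log2 -5.51 ± 0.44; limma adjusted p = 0.000351). Il31ra, a subunit of the interleukin-31 receptor, had 118, 95.2 and 40.6 against 2039.7, 1141, 2523 and 5301, a 30.3-fold fall. Pdzrn4, a PDZ and RING domain protein, had 18.9, 34.8 and 37.6 against 521, 458, 845 and 1076 (log2 -4.50 ± 0.36). In these 3 genes the populations were widely separated. Thsd1, a thrombospondin type 1 domain protein, fell by 21.4-fold, and Mme, the cell surface peptidase neprilysin, by 23.0-fold. Grik1, a kainate receptor subunit, had 5.98, 8.51 and 0 against 95.8, 76.0, 228 and 212. Sorcs3, a sorting receptor, had 1.0, 6.97 and 0 against 61.2, 28.2, 78.0 and 319.5, where HFSC replicate 4 was far above the other HFSC libraries.

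Matrix and guidance genes fell in part. Of 27 tested collagen chains, 9 (33.3%) fell and 1 (3.70%) rose, against 4.78% and 3.21% of all genes. The median was -1.45, and without HFSC replicate 4, 10 fell and 1 rose. Col6a1, a chain of microfibrillar collagen VI, had 56.8, 134 and 49.5 normalized counts in YFP+ cells and 1188, 1485, 1436 and 664 in HFSCs, a 15.5-fold fall (limma adjusted p = 0.000886). Its partner Col6a2 fell by 10.9-fold, Col8a2 by 21.1-fold and Col5a2 by 19.1-fold. The chain that rose was Col23a1, a transmembrane collagen singled out after its value was seen, with 683, 534 and 1138 against 226, 144, 228 and 86.9 (4.65-fold; adjusted p = 0.00919). Of 26 matricellular genes tested, none rose and without HFSC replicate 4, 9 fell. With all libraries 5 (19.2%) fell, against 4.78% of all genes. Apart from Ctgf these included Spock2, a proteoglycan that fell by 5.50-fold, and Ecm1, extracellular matrix protein 1, that fell by 3.50-fold. Thbs1, thrombospondin 1, was not called, with 10250.2, 5853 and 12230.2 against 8843, 4444, 7743 and 865. Of 49 axon guidance molecules tested, 8 (16.3%) fell and 1 (2.04%) rose, against 4.78% and 3.21% of all genes. Without HFSC replicate 4, 15 fell and 1 rose. Sema3e, a secreted semaphorin, had 109.7, 135 and 76.3 against 1123, 1069.8, 1713 and 2035, a 13.6-fold fall (adjusted p = 0.000351). The Slit receptor Robo2 fell by 6.01-fold and the semaphorin receptor subunit Plxna2 by 3.81-fold. Sema4d rose by 2.87-fold (adjusted p = 0.0438), a call lost without any 1 YFP+ library, HFSC replicate 1 or HFSC replicate 3 (up to 0.144).

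Cell cycle genes moved the other way. All 44 S-phase and mitosis genes of the list had a positive log2 difference, 34 rose by the test, against 3.21% of all genes, and the median was 2.05. Across the alternatives 24 to 40 rose and none fell, and without HFSC replicate 4, 39 rose. The summed level of the list was 18540 to 26618 normalized counts in YFP+ libraries, 5168 to 5843 in HFSC libraries and 16366 to 20239 in Thy1hi libraries. Mki67, the gene of the Ki-67 proliferation antigen, had 3977, 4646 and 7526 in YFP+ cells and 825, 941, 897 and 959 in HFSCs. Every HFSC library, replicate 4 included, lay below 1000 normalized counts, and the rise was 5.73-fold (log2 2.52 ± 0.24; limma adjusted p = 0.000722). Top2a, the topoisomerase that untangles replicated DNA, had 1526, 1967 and 2841 against 506, 467, 406 and 427 (log2 2.18 ± 0.23; adjusted p = 0.00112). The mitotic cyclin Ccnb1 had 204, 272 and 435 against 38.1, 55.4, 32.1 and 20.3, the largest fold among the called members at 8.22-fold (log2 3.04 ± 0.38; adjusted p = 0.00222). Its relative Ccnb2 had 112, 142 and 207 against 19.6, 38.0, 27.8 and 9.81, and the ubiquitin-conjugating enzyme Ube2c, which helps to destroy mitotic cyclins, had 123, 163 and 225 against 23.1, 40.2, 18.2 and 11.9. In all of them YFP+ replicate 3 was the highest library. The mitotic kinase Plk1 was evenly high, with 128, 132 and 133 against 24.2, 25.0, 20.3 and 11.2, and the kinetochore motor Cenpe rose by 6.72-fold. Aurka, another mitotic kinase, rose by 7.27-fold (adjusted p = 0.0128, and up to 0.0697 without YFP+ replicate 2 or 3). The 10 members not called included genes of DNA replication such as Pcna, the sliding clamp, with 178, 178 and 156 against 155, 122, 181 and 41.3 (adjusted p = 0.435).

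Promoters of mitotic genes often hold CCAAT boxes, bound by NF-Y, and a cell cycle homology region with the letters TTTGAA or TTTAAA. Both were searched on both strands in the 150 bases before each RefSeq transcription start (GRCm38.p6). Of the 34 genes that rose, 29 matched the RefSeq table, with 31 starts. A CCAAT box lay before 26 of these 31 starts (83.9%), against 24.5% of all 32851 starts, and TTTGAA or TTTAAA before 11 (35.5%), against 14.7%. Of the 6 called members with the largest folds, 5 are written out to let the letters be seen, each cut to its longest stretch outside annotated exons, 5′ to 3′ on the gene's strand, with matches in capitals (CCAAT reads ATTGG on the other strand).
Ccnb1 (chr13:100786571-100786636, minus strand): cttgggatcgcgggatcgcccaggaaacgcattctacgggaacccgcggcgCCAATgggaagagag
Ube2c (chr2:164769779-164769897, plus strand): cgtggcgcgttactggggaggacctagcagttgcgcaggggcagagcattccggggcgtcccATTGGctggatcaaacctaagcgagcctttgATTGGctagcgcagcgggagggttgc
Aurka (chr2:172370571-172370680, minus strand): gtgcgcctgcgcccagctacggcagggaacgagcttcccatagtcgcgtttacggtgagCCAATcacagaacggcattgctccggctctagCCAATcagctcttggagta
Ccnb2 (chr9:70421555-70421704, minus strand): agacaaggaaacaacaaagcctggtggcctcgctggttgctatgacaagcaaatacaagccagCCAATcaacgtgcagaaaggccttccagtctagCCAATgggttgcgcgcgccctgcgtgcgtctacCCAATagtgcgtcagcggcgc
Plk1 (chr7:122159402-122159434, plus strand): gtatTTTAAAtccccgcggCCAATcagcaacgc
The sixth gene, Cenpe, has 1 CCAAT box in its 150 bases, in a part that lies in an annotated exon. The cut also removed matches from printed genes. In the whole 150 bases Ccnb1 has 2 CCAAT boxes. TTTGAA or TTTAAA occurs there 1 time in Ccnb1, 1 time in Ube2c and 2 times in Plk1. These matches describe letters in the windows and were not tested against binding.

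**Figure D3:**
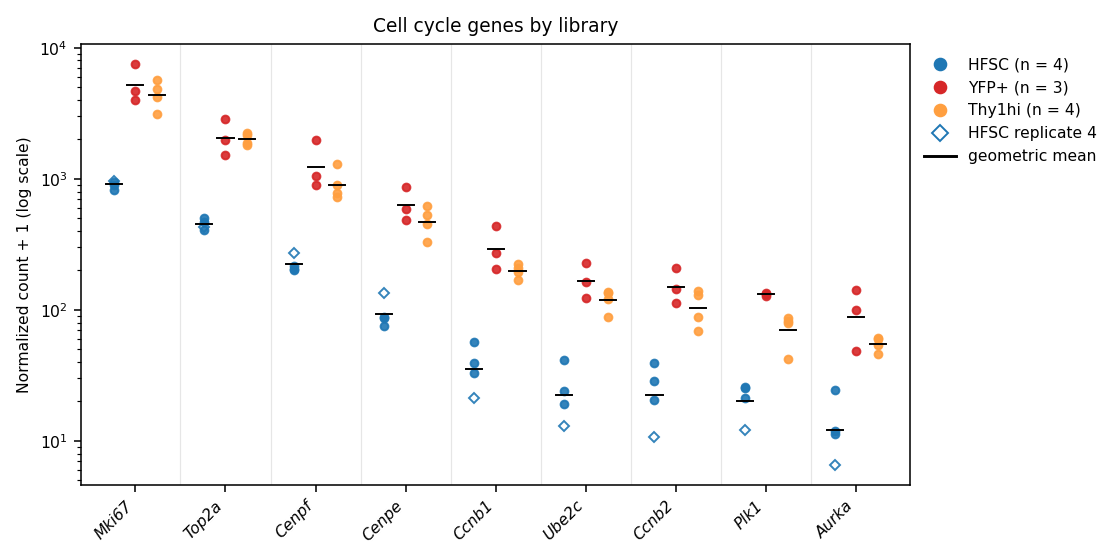
Normalized counts plus 1 (vertical axis, log scale) of 9 cell cycle genes (horizontal axis) in single HFSC, YFP+ and Thy1hi libraries; open diamonds mark HFSC replicate 4 and bars the geometric mean. YFP+ and Thy1hi libraries lie above every HFSC library for each gene.

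Both populations had high levels of the basal keratins. Of 27 tested basal keratin and basement membrane genes, 3 rose and 1 fell, or 11.1% and 3.70% against 3.21% and 4.78% of all genes, with a median of 0.18. Without HFSC replicate 4, 5 rose and 1 fell, by DESeq2 7 rose and 2 fell, and without YFP+ replicate 1 or 3 none was called. Krt14, the basal type I keratin, had 93749.7, 68780.1 and 117463 normalized counts in YFP+ cells and 29855, 26882, 28025 and 9872 in HFSCs. All YFP+ libraries were above all HFSC libraries, with replicate 4 the lowest (log2 2.07 ± 0.49; limma adjusted p = 0.0337). The call was lost without any 1 library other than HFSC replicate 4 (adjusted p up to 0.130) and stood at 0.00236 without that one. Its partner Krt5 had 70508, 44883 and 79559 against 39645, 37535, 43698 and 16239 and was not called (adjusted p = 0.235), although every YFP+ library was above every HFSC library. The member that fell was Krt15, and those that rose included the sort marker Itga6.

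Of 30 tested genes described in the interfollicular epidermis, 2 (6.67%) rose and 4 (13.3%) fell, against 3.21% and 4.78% of all genes. Without HFSC replicate 4, 2 rose and 6 fell. The rises were the sort marker Ly6a and Klf5, a zinc finger factor of basal keratinocytes, at 3166, 2952 and 4033 against 1882, 1454, 1629 and 639.7 normalized counts. The call for Klf5 (limma adjusted p = 0.0485) was lost in 9 of 18 alternatives, among them those without any 1 library other than HFSC replicate 4 (up to 0.177). Several list members were higher in HFSCs. Tgm5, a transglutaminase, had 94.7, 147 and 75.3 in YFP+ cells and 1359.8, 1614, 1699 and 1658 in HFSCs, a 15.4-fold fall (adjusted p = 0.000155), and Tfap2b, the AP-2β factor, fell by 3.84-fold. Of 45 tested terminal differentiation and cornified envelope genes, none rose and 1 (2.22%) fell, against 4.78% of all genes. That gene was Calml3, a calmodulin-like protein, at 217, 349 and 67.4 against 1797, 1982, 1798 and 984 (adjusted p = 0.00600). Krt10, the suprabasal keratin, had 31643, 19651 and 6538 against 26638, 14523, 25599.5 and 12738 and was not called, and YFP+ replicate 3 was the lowest of the 7 libraries. The summed level of this list ranged from 49462 to 140993 in YFP+ libraries and from 68801 to 132567 in HFSC libraries, with full overlap.

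Of 29 tested genes of the infundibulum, isthmus and sebaceous gland, 3 fell, among them Lgr6 and Gata6, and of 17 tested hair lineage genes, 3 fell (Krt24, Trps1 and Hoxc13), or 10.3% and 17.6% against 4.78% of all genes. No member of either list rose in this fit, but in the hair lineage list 3 rose and 4 fell without HFSC replicate 4, and 4 rose and 2 fell when libraries were scaled to the same total. In the infundibulum list none fell without HFSC replicate 1 or 3 or YFP+ replicate 1 or 3. Trps1, a zinc finger factor, had 70.8, 152 and 112 normalized counts in YFP+ cells and 372, 462, 416 and 492 in HFSCs (limma adjusted p = 0.00278). The calls for Lgr6, Gata6 and Hoxc13 were near the threshold (adjusted p 0.0168, 0.0498 and 0.0498) and were lost without any 1 of YFP+ replicates 1 and 3 and HFSC replicates 1 and 3, and in other alternatives (up to 0.174).

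The genes with the largest rises in YFP+ cells included protease inhibitors, a detoxifying enzyme, matrix enzymes and a gap junction protein. BC100530, Stfa1 and Stfa3 encode stefin A family inhibitors of cysteine proteases and lie on chromosome 16 (for Stfa1, chr16:36277148-36285371). Their sequences are close copies of each other, so the split of reads between them is uncertain. BC100530 had 568, 499 and 679.7 normalized counts in YFP+ cells and 31.2, 10.9, 17.1 and 0.700 in HFSCs, a 55.6-fold rise (log2 5.80 ± 0.84; limma adjusted p = 0.00424). Stfa1 rose by 32.5-fold and Stfa3 by 20.5-fold. Gsta4, a glutathione S-transferase that clears products of lipid peroxidation, had 1368, 919.6 and 869.9 against 63.5, 31.5, 16.0 and 4.20, a 49.7-fold rise (adjusted p = 0.00225). In each of these genes replicate 4 was the lowest HFSC library. It was the lowest of the HFSC libraries in 51.1% of the genes that rose and 38.8% of all genes tested.

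Mmp3 (stromelysin 1) had 451, 155 and 346 normalized counts in YFP+ cells and 25.4, 7.60, 13.9 and 2.10 in HFSCs (log2 4.84 ± 0.69; limma adjusted p = 0.00405). Has3, a hyaluronan synthase, had 643, 397 and 756 against 99.3, 42.4, 34.2 and 15.4, a 14.5-fold rise. Gjb2, which encodes connexin 26, had 1011, 639 and 535 against 79.7, 153, 51.3 and 17.5 (11.9-fold; adjusted p = 0.00876). The membrane glycoprotein Pdpn rose by 14.2-fold and the SH2 domain protein Sh2d5 by 32.4-fold. The calls for Gjb2, Sh2d5 and Pdpn moved just past the threshold without YFP+ replicate 1 (adjusted p 0.0516 for Gjb2 and 0.0521 for Sh2d5), and that for Pdpn also without YFP+ replicate 3 (0.0569). For Krt6a and Krt16, keratins of activated epidermis, HFSC replicate 4 was far below every other library. Krt6a had 7616, 5537 and 5089 against 2216, 2161, 1926 and 316 and was not called (adjusted p = 0.0662), but its adjusted p without HFSC replicate 4 was 0.00103, and with that library it was called by DESeq2, with no filter, when scaled to the same total and in the fits over 20 and 19 libraries. Krt16 had 9467, 9035 and 7623 against 3301, 5044, 3965 and 51.9, with adjusted p = 0.276 with that library and 0.00553 without it. Krt6a shares much of its sequence with its copy Krt6b, so its counts are uncertain in the same way.

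**Figure D4:**
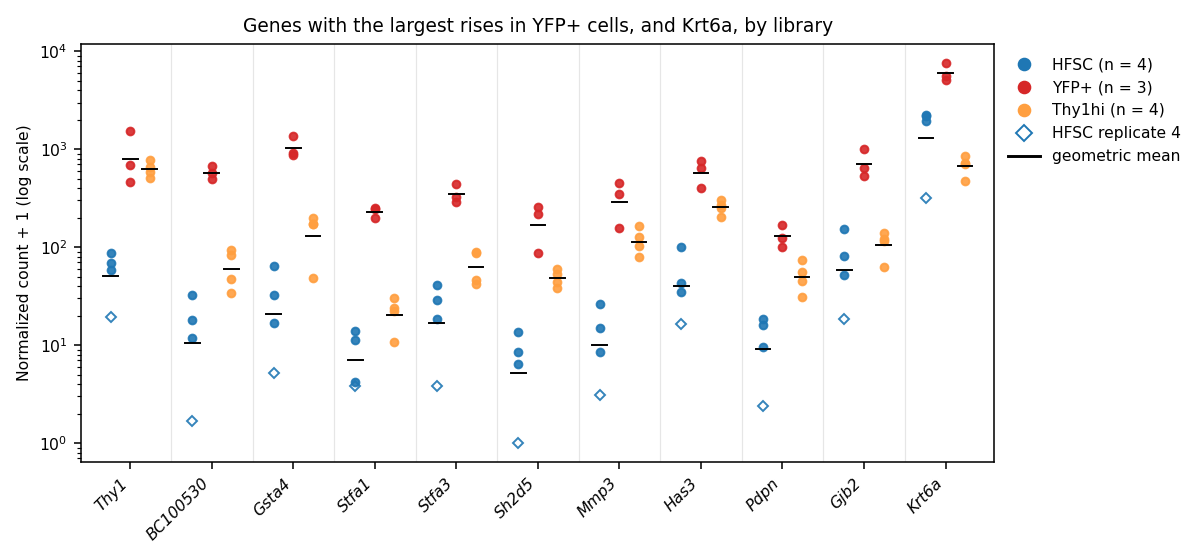
Normalized counts plus 1 (vertical axis, log scale) of the 10 genes with the largest rises in YFP+ cells and of Krt6a (horizontal axis) in single HFSC, YFP+ and Thy1hi libraries; open diamonds mark HFSC replicate 4 and bars the geometric mean. YFP+ libraries lie above all HFSC libraries throughout, and above all Thy1hi libraries for every gene except Thy1 and Mmp3.

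Of 23 tested cytokines and alarmins, 4 (17.4%) rose and 1 (4.35%) fell, against 3.21% and 4.78% of all genes. The median was 0.86, and without HFSC replicate 4, 5 rose and 2 fell. Il33, an alarmin released by damaged epithelium, had 550.2, 461 and 1042 normalized counts in YFP+ cells and 114, 146, 152 and 68.7 in HFSCs, a 5.55-fold rise (limma adjusted p = 0.00420). Il24, a cytokine of the interleukin-10 family, had 38.9, 20.1 and 49.5 against at most 3 reads in each HFSC library, so it was at least 12.0-fold higher. Il1rn, the interleukin-1 receptor antagonist, rose by 2.43-fold and Kitl, the ligand of Kit, by 1.97-fold. Both calls were lost without YFP+ replicate 1 or 3 or HFSC replicate 1, that of Il1rn also without YFP+ replicate 2 and that of Kitl also without HFSC replicate 3 (adjusted p up to 0.120). Cxcl14, a chemokine of the follicle that is also on the bulge list, had 349.9, 396 and 409 against 1419.8, 3972, 2146 and 1509.9, a 5.37-fold fall (adjusted p = 0.00350).

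Genes induced within minutes of stress or tissue dissociation separated HFSC replicate 4 from all other libraries. Fos had 11138, 6450.3 and 9263 normalized counts in YFP+ cells and 12419, 12337, 13931 and 399 in HFSCs. Jun had 8990.2, 8499 and 10207 against 13780.1, 14687, 14911 and 741, and Atf3 had 7325, 5956 and 7142 against 11705, 11529, 14338 and 209.5. In each, replicate 4 was lower than every other library by more than 10-fold. None of the 30 tested genes of this list was called with all libraries, while 11 fell and none rose without HFSC replicate 4, where the adjusted p was 0.0204 for Jun, 0.00846 for Atf3 and 0.105 for Fos. The summed level of the list was 75694 to 97489 in YFP+ libraries, 122508 to 136539 in HFSC replicates 1 to 3 and 15244 in replicate 4. None of 17 tested cell cycle inhibitors was called with all libraries, and 2 rose and 3 fell without replicate 4. The antiproliferative gene Btg2 had 2223, 2160.4 and 2473 against 4331, 4556, 4189 and 244 and passed the test without it (adjusted p = 0.00244).

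**Figure D5:**
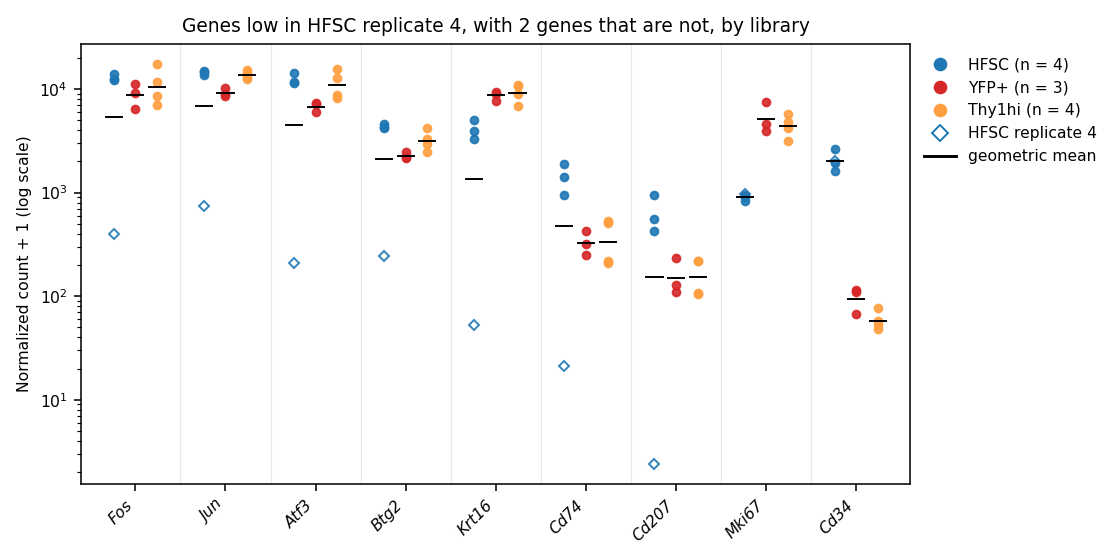
Normalized counts plus 1 (vertical axis, log scale) of genes low in HFSC replicate 4, with Mki67 and Cd34 for comparison (horizontal axis), in single HFSC, YFP+ and Thy1hi libraries; open diamonds mark HFSC replicate 4 and bars the geometric mean. Replicate 4 lies far below the other HFSC libraries from Fos to Cd207 and among them for Mki67 and Cd34.

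Markers of other cells that a skin sort can hold differed between the populations and between libraries. Of 15 tested T cell markers only the sort marker Thy1 was called, and without HFSC replicate 4, 2 others fell. The summed level of the list without Thy1 was 187 to 341 in YFP+ libraries, 511 to 583 in HFSC replicates 1 to 3 and 225 in replicate 4. Cd3e, part of the T cell receptor complex, had 12.0, 13.9 and 3.96 normalized counts in YFP+ cells and 43.9, 58.7, 75.9 and 14.0 in HFSCs, and Cd3d had 20.9, 48.8 and 42.6 against 38.1, 44.5, 25.7 and 87.6. Cd3e was lower in the YFP+ libraries, by a margin of 13.9 against 14.0 at HFSC replicate 4, and Cd3d overlapped. Of 11 tested Langerhans cell markers none was called with all libraries and 7 fell without HFSC replicate 4. Cd207, which encodes langerin, had 128, 232 and 109 against 424, 958, 554 and 1.40, and Cd74, a chaperone of antigen presentation, had 320.0, 422 and 249 against 944, 1869, 1405 and 20.3. The summed Langerhans level was 714 to 1375 in YFP+ libraries, 2608 to 5526 in HFSC replicates 1 to 3 and 93.2 in replicate 4. Bulge sorts can also take in melanocyte stem cells. Of 7 tested melanocyte markers, 2 (28.6%) fell, against 4.78% of all genes. The summed level was 141 to 206 in YFP+ libraries against 781 to 1093 in HFSCs. Mitf, the melanocyte master regulator, was the highest of these markers in every library with 79.7, 106 and 60.4 against 720.3, 453, 754 and 762. Dct, a pigment enzyme, fell by 3.75-fold (limma adjusted p = 0.0258, lost without HFSC replicate 2 or 3 or YFP+ replicate 1 or 3, up to 0.108). Pmel and Tyr, defining pigment cell genes, were at most 31.5 in any library, and 3 of 13 melanocyte markers had at most 3 reads in every library. Of 6 tested fibroblast and endothelial markers only Col1a2 was called, 4.50-fold lower in YFP+ cells (2 fell without HFSC replicate 4). That is 16.7% against 4.78% of all genes. The 2 Merkel cell markers tested were not called. The part of these cells in the follicle gene falls was not tested.

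The 3 YFP+ libraries differed among themselves. YFP+ replicate 3 had the most Thy1 and Postn and the highest levels of Mki67, Top2a and Ccnb1, and the least Krt10 and Calml3. YFP+ replicate 2 had the highest levels of Gli1, Grem1 and Tbx1. Correlations across genes among the 3 were 0.929 to 0.954. With HFSC replicates 1 to 3, YFP+ replicate 2 correlated at 0.890 to 0.925. Those of YFP+ replicate 1 were 0.864 to 0.895 and those of YFP+ replicate 3 were 0.827 to 0.861. Against the wild-type Thy1hi sort, list medians of the log2 difference (YFP+ minus Thy1hi) were small. They were 0.08 for bulge surface and secreted genes, -0.11 for the transcription factors, -0.21 for hedgehog and -0.17 for WNT. For the BMP, TGF-beta and activin list the median was -0.27 and for cell cycle genes 0.24. No member of these lists was called. Only 38 (0.266%) of all genes tested were called, so the lack of calls does not show that the populations were alike. Over all 14269 genes, 22 were higher (0.154%) and 16 lower (0.112%) in YFP+ than in Thy1hi cells. Some of the largest rises against HFSCs were among them. Gsta4 had 197, 169.9, 172 and 47.5 normalized counts in the Thy1hi libraries, 2.99 ± 0.42 log2 units (SE) below YFP+ cells (limma adjusted p = 0.0204). BC100530, Stfa1, Stfa3 and Gjb2 were likewise higher in YFP+ than in Thy1hi cells (adjusted p 0.00436, 0.00436, 0.00979 and 0.00545). Krt6a had 852, 701, 726 and 469.6 in Thy1hi cells, less than in HFSC replicates 1 to 3, and differed by 3.15 ± 0.22 (adjusted p = 0.000228). Thbs1 went the other way, with 24099, 25086, 28818 and 24841 in Thy1hi cells (adjusted p = 0.0451). These calls depended on the fit: over all 20 or over 19 libraries, limma called 2 genes higher than in Thy1hi cells and 0 lower. Both comparisons use the same YFP+ libraries. By the study's methods and the labels, strain, transgene, tamoxifen and labelled age also differed between YFP+ and Thy1hi cells, and cannot be told apart.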

How the data were processed

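Per the study's methods, the authors used STAR for alignment to mm10 and featureCounts for read counts on Ensembl genes, and named DESeq2 among the packages of their downstream analysis; tool versions and the normalization of the table are not given in the sources used here. By its values, the deposited table holds a signal per gene, whole reads divided by 1 size factor per library, for 53380 genes and 20 libraries. All values up to 1000 in every library were multiples of 1 read within 0.02 normalized counts, so whole reads were recovered for the alternatives that need counts (size factors 0.866 to 1.43 in the 7 libraries compared). With 9532524 to 12982393 reads on genes per library, precision at low values is limited by counting.

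Differences were fitted with limma 3.58.1 (lmFit and eBayes with a trend, R 4.3.3) on log2(normalized count + 1), using the 3 YFP+ and 4 HFSC libraries only, with no covariate. Tests were two-sided, with Benjamini-Hochberg adjustment across 14269 genes. Differences are on this log2 scale and folds are 2 raised to it, which understates changes of low genes; errors are SEs unless named otherwise. YFP+ and Thy1hi libraries were compared in the same way over the same genes. Checked on data simulated for the YFP+ and HFSC libraries (14269 genes), the fit found 8 of 79 genes given a 2-fold change, 35 of 58 given a 4-fold and 60 of 63 given an 8-fold one, and it called 9 of 14069 genes left as they were. In the simulation genes were drawn independently, far fewer were changed than were called in the data, and no library was set apart. These rates thus need not hold for the real comparison. Where a population had at most 3 reads in every library, the fold is given as a bound.

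The genes tested and the 23 gene lists were chosen with earlier results of these data known, so counts over lists are descriptions beside the same counts over all genes. Named genes are the sort markers and Lgr5, the 10 largest rises and falls among called genes without overlap (mean of at least 100 in the higher population; no symbols of Gm with digits or ending in Rik), and from each list up to 6 called members with the largest change and up to 3 with the highest level; not all of these are printed, and some are not reported here. A few genes outside this rule (Wnt3, Wnt3a, Wnt4, Fzd10, Col23a1, Sema4d, Pcna, Cd3e, Pmel, Tyr and Krt6b among them) were chosen after their values were seen. Upstream sequences are from RefSeq (GRCm38.p6), and exons from GENCODE M21. Alternatives were other pseudocounts (0.1 and 10), filters (none, or a mean of at least 50) and scalings, edgeR 4.0.16 and DESeq2 1.42.0 on whole reads, fits over all 20 or 19 libraries, a replicate block and leaving out each library. The 19 libraries leave out replicate 4 of the Thy1- cells, whose deposited column follows another gene order.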

Additional observations from a re-analysis of the deposited data

Results flagged for a closer look

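In 11 of 104 named genes, 1 HFSC library lay so far from the other 3 that its gap to the nearest exceeded Dixon's limit. Independent normal values pass that limit about 1 time in 20. The gaps were taken on normalized counts without a log. The genes share the same libraries and were not picked at random, so the share is no test against chance. In 8 of the 11 it was replicate 4, which was low for Fos (399 normalized counts), Jun (741), Btg2 (244), Krt14 (9872), Krt6a (316), Foxc1 (429.5) and Smad6 (39.9) and high for Sorcs3 (319.5). Replicate 2 was the distant library for Sfrp1 (4050.0) and Tcf7l1 (287), where it was high, and for Mitf (453), where it was low.

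For 7 named genes the YFP+ cells differed from the wild-type Thy1hi sort of the same gate by limma on these 2 populations. The calls depended on the fit. Over all 20 or over 19 libraries, 2 of all genes tested were called higher and 0 lower. Without YFP+ replicate 1, 6 were called higher and 0 lower, so Thbs1 lost its call in each of these fits. The log2 differences (YFP+ minus Thy1hi) were 3.50 for Stfa1 and 3.28 for BC100530 (adjusted p = 0.00436 for each), 3.15 for Krt6a (adjusted p = 0.000228), 2.99 for Gsta4 (adjusted p = 0.0204), 2.73 for Gjb2 (adjusted p = 0.00545), 2.47 for Stfa3 (adjusted p = 0.00979) and -1.51 for Thbs1 (adjusted p = 0.0451).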

How the results depend on the processing

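Of 104 named genes, 69 kept their direction and their side of the threshold in all 18 alternatives. Of the 88 that were called, 24 lost the call without at least 1 library, and none of them changed direction.

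Against HFSCs, genes called higher and lower numbered 880 and 1251 by DESeq2, 889 and 1051 in the fit over all 20 libraries, 990 and 1139 in that over 19, and 791 (higher) when scaled to the same total. Leaving out 1 library gave 169 to 830 higher and 334 to 1226 lower calls: YFP+ replicates 1 and 3 gave the fewest (170 and 334 without the first, 169 and 374 without the other), HFSC replicates 1 and 3 gave 304 and 422, and 256 and 369, YFP+ replicate 2 gave 300 and 551, and HFSC replicate 4 the most. Against Thy1hi, the counts were 137 and 159 with no filter, 203 and 265 by DESeq2, 8 (lower) when scaled to the same total, and 2 and 0 by limma over all 20 or over 19 libraries. There, 594 and 656 genes were lower at an unadjusted p under 0.05. Leaving out 1 library gave 6 to 37 higher and 0 to 36 lower calls; the 0 (without YFP+ replicate 1) stands beside 666 at an unadjusted p under 0.05 and 18 by edgeR with all libraries. The cause of these shifts was not tested. Across the alternatives, 9 to 16 hair follicle stem cell transcription factors, 15 to 23 bulge genes, 5 to 9 hedgehog genes, 9 to 19 WNT genes and 9 to 20 BMP, TGF-beta and activin genes were called lower, and 24 to 40 cell cycle genes higher.

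Whether the replicate numbers pair the samples was not settled. Deviations of same-numbered YFP+ and HFSC libraries correlated at 0.159, 0.182 and -0.0795 across genes. For libraries of different numbers the correlations ran from -0.191 to 0.0869. The number was also used as a replicate block, which leaves out replicate 4 of the HFSC and Thy1hi libraries. That gave 882 higher and 1152 lower calls against HFSCs, and 120 and 250 against Thy1hi. The same libraries without the block gave 830 and 1226 against HFSCs, and 37 and 24 against Thy1hi.

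The genes that changed direction were not called with all libraries. By edgeR, by DESeq2 and in the replicate block, the log2 difference was -0.55, -0.54 and -0.93 for Btg2, -0.13, -0.12 and -0.56 for Fos, -0.26, -0.25 and -0.65 for Jun, and -0.48, -0.47 and -0.88 for Atf3. Without 1 library, it ran from -0.93 to 0.47 for Btg2 and from -0.56 to 1.15 for Fos. For Jun it ran from -0.65 to 0.79 and for Atf3 from -0.88 to 1.15. For Cd207 it ran from -2.03 to 0.85 and for Cd74 from -2.07 to 0.0862. Each of these genes was lowest without HFSC replicate 4, where Cd207 and Cd74 were called lower (limma adjusted p = 0.00639 and 0.00187). The range was -0.58 to 0.0410 for Cd3d and -0.73 to 0.40 for Krt10. Cd207 was 0.13 with a pseudocount of 0.1 and 0.10 scaled to the same total, and Cd3d was 0.0014 in the block. Precision at low counts is limited by depth, and the cause of these changes of direction was not tested.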
